A study of Mus musculus with 7 samples.

Results

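The 45 genes described here encode the machinery that copies DNA in S phase, and the regulators that switch it on at the G1/S transition of the cell cycle. They were chosen by name, from origin licensing factors to checkpoint proteins, and all 45 were among the 55341 gene names of the count table. Their levels were measured by bulk RNA-seq in microglia, the resident macrophages of the brain, sorted as CD11b+CD45low cells from cortex of 5xFAD mice. In these mice, cortical cells of embryonic WT C57BL/6 mice had been injected into the neocortex, and 4 weeks later the graft and small pieces of cortex near it were dissected. The comparison asks whether microglia inside the graft differ in their transcripts from microglia outside it. The inside of the graft was represented by 3 libraries and the outside by 4, which the labels call Graft and Control. Every library, on either side of the border, came from 5xFAD hosts of the C57BL/6 strain aged 14 weeks. These hosts express mutant human APP and PS1 from the neuron-specific Thy1 promoter, so neither group comes from a brain without the transgenes, and both were taken near an injection site. The labels do not say whether a library held cells of 1 mouse or several. P-values therefore measure the spread between these libraries, which may be technical in part.

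DNA is copied once per cell cycle. Origins are licensed in G1 when ORC, CDC6 and CDT1 load the MCM2-7 helicase, which CDC45, the GINS complex and MCM10 then help to activate. Polymerases, the PCNA clamp and its loader extend both strands behind the helicase while ribonucleotide reductase and thymidylate enzymes supply nucleotides. E2F transcription factors and cyclin E drive the switch into S phase, and E2F7 and E2F8 are repressors of the same targets that are themselves induced in S phase. Microglia in the adult brain renew by slow local division and can proliferate after injury or near plaques.

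E2F factors bind promoters of many of these genes, and 3 kinds of promoter element were therefore counted. The E2F site was searched as TTTCCCGC, TTTGGCGC, TTTCGCGC or TTTGCCGC, the CHR element, known from promoters of G2/M genes, as TTTGAA or TTCGAA, and the CCAAT box as CCAAT, each on both strands and with overlaps allowed. The windows were those of RefSeq on GRCm38.p6 and ran from 250 bases before to 50 bases after each start. Windows were found for 39 of the 45 genes. An E2F site was present in 16 of these 39 genes (41%) and in 704 of the 27025 genes with a window (2.6%). A CHR element was present in 6 of 39 (15.4%, against 21.7% of all genes) and a CCAAT box in 22 of 39 (56.4%, against 41.1%). Sites of 5 genes are printed 5′ to 3′ on the strand of the gene with the E2F site in capitals, because the first 3 genes were higher in every inside library and the other two, Mcm6 and Pola1, were not. The E2f7 stretch lies at chr10:110745215-110745274 (plus strand), that of Uhrf1 at chr17:56304102-56304161 (plus), that of Mcm5 at chr8:75109330-75109393 (plus), those of Mcm6 at chr1:128359778-128359841 and chr1:128359719-128359778 (minus), and that of Pola1 at chrX:93632260-93632319 (minus).
E2f7: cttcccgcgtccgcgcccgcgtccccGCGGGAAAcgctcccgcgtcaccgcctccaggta
Uhrf1: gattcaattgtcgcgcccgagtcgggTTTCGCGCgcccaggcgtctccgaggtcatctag
Mcm5: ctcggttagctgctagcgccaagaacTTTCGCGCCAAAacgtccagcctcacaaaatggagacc
Mcm6, distal site: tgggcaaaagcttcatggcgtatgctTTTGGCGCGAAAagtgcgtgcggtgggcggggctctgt
Mcm6, proximal site: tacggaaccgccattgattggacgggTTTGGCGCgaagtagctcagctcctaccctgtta
Pola1: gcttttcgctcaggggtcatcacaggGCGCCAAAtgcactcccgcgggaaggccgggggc

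In Mcm5 and in the distal site of Mcm6, 2 sites on opposite strands overlap and share the capitals. A site was found in 3 of the 14 genes with a window that were higher in every inside library (21.4%) and in 13 of the 25 others (52%). Among the 16 genes with a site the median log2 fold change (inside against outside) was 0.61, ranging from -0.07 to 5.48, and among the 22 tested genes without one it was 0.91, ranging from -0.81 to 4.78.

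Between 18644807 and 25882122 reads per library were counted on genes. Levels are given in CPM, the reads of a gene scaled to a library total that edgeR adjusts by its trimmed mean of M values (TMM), and fold changes are those of edgeR. Outside graft 1 stood apart from the other libraries: it had the smallest total, the lowest library weight in limma (0.448) and the most members without a single count (6 of 45). For the 45 genes, both values are given where the fold change without it moved by more than 1.5 times, before taking log2, or where the log2 value changed sign. Smaller moves are mostly left out, such as log2 fold changes from 0.46 to 0.05 for Gins1 and from 0.77 to 0.38 for Hells. Of the 45 genes, 44 passed the filter on low counts. The exception was Ung, the uracil-DNA glycosylase, with 0 to 12 counts per library. A total of 17 genes share exon bases with a neighbouring gene. Strand was not used in counting, so a read within the shared bases could not be assigned to either gene by its position.

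The summed level of the 45 genes was 626, 590 and 818 CPM in inside graft libraries 1 to 3 and 518, 495, 466 and 490 CPM in outside graft libraries 1 to 4. All 3 inside libraries lay above all 4 outside libraries, and the group means were 678 ± 122 (SD, n = 3) and 492 ± 21.4 (SD, n = 4), a ratio of 1.38. Without inside graft 3 this ratio was 1.24. In bulk RNA, more dividing cells and more of these transcripts per cell cannot be told apart. Expressed at 1 CPM or more were 42 or 43 of the 45 genes in each inside library and 34 to 37 in each outside library. The difference was unevenly spread over the pathway. By role, the ratio of the summed levels was highest for the G1/S regulators (4.92) and helicase activation (2.49) and lowest for lagging strand genes (1.14) and origin licensing (1.16), and the abundant genes Mcm3 and Slbp had ratios of 0.988 and 0.984. The plot of CPM by library shows every gene.

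**Figure D1:**
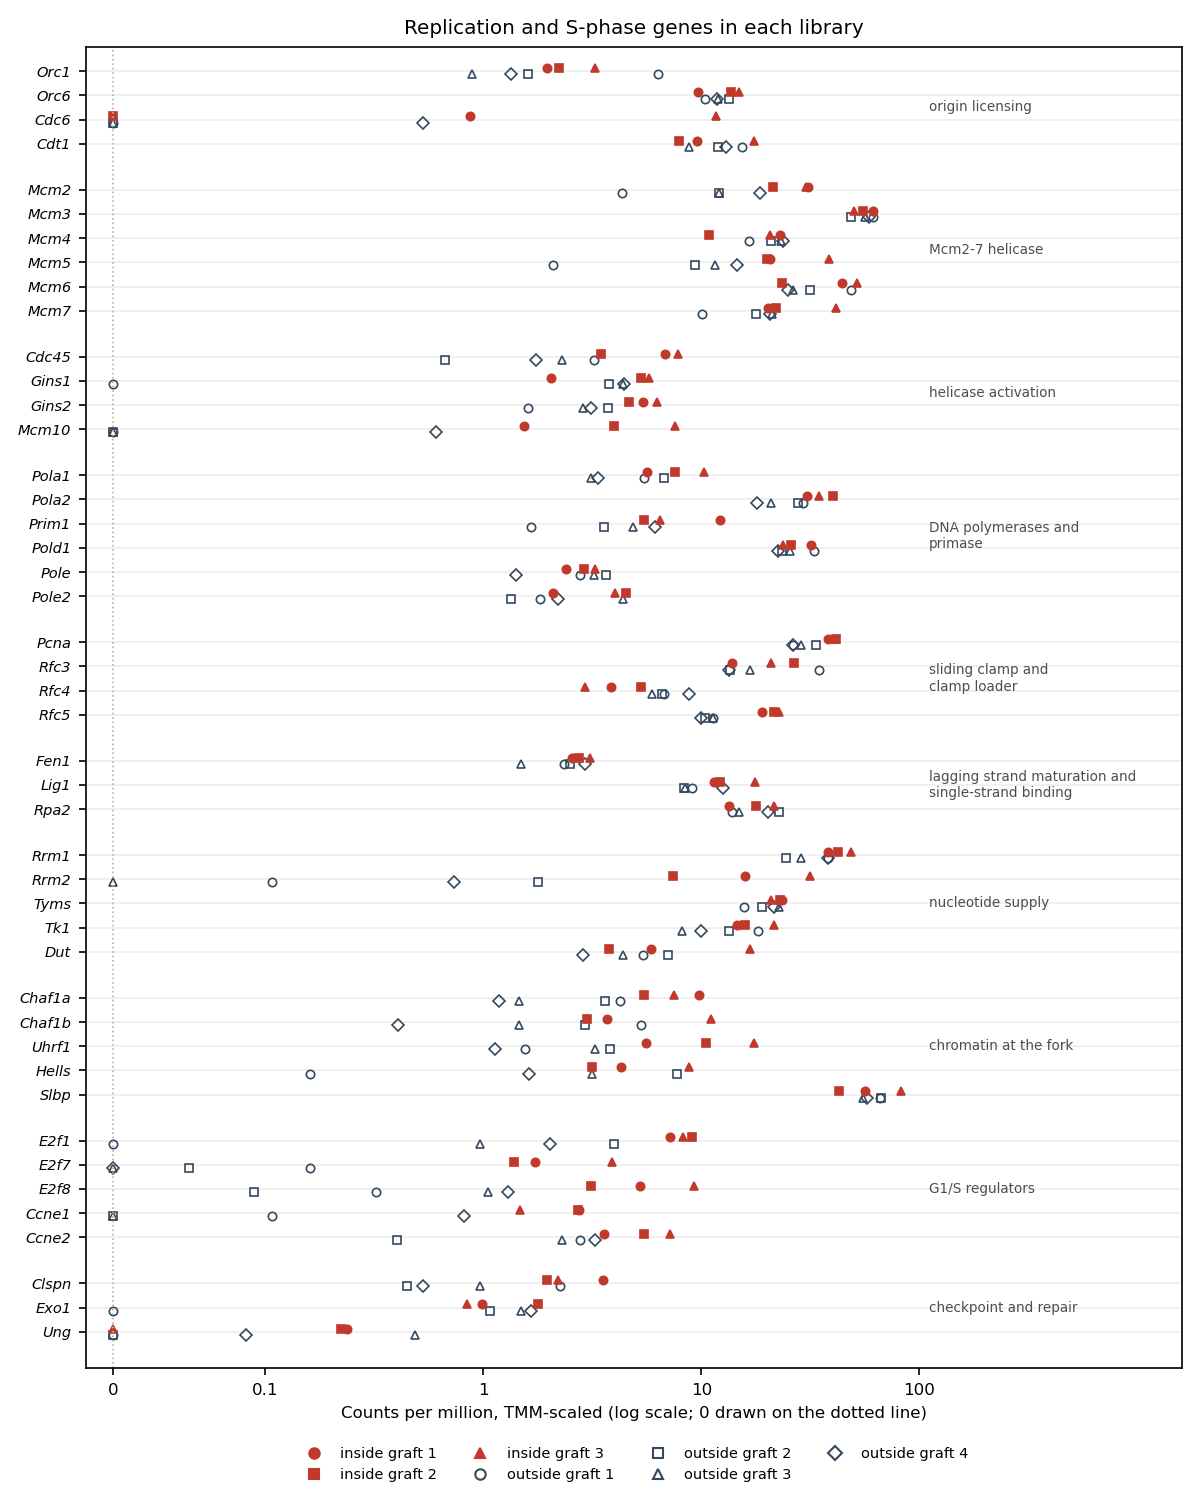
Level of each of the 45 genes (rows, grouped by role) in every library, in TMM-scaled CPM on a log axis, with 0 drawn on the dotted line. Filled red symbols are the 3 inside graft libraries and open symbols the 4 outside graft libraries. The groups separate widely for E2f7, E2f8, Rrm2 and Mcm10, and coincide for Mcm3, Pold1 and Slbp.

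With edgeR's quasi-likelihood test, 0 of the 44 genes tested passed an adjusted p of 0.05 in either direction, while 15 of all 15257 genes passed it as higher inside the graft (0.0983%). At an unadjusted p below 0.05, 16 of the 44 were higher and 1 was lower, where 5.76% of all genes were higher. With voomWithQualityWeights, the limma test named in the methods of the study, 1 gene (E2f7, adjusted p = 0.0453) passed as higher, against 0.433% of all genes, and 0 as lower. That call was lost when any 1 library other than inside graft 2 was left out (adjusted p 0.0517 to 0.284), and without inside graft 2 its adjusted p was 0.0438. DESeq2 called 5 genes higher, namely Rfc5, Rrm2, Uhrf1, E2f7 and E2f8, against 2.10% of all genes, and 0 lower. The direction was positive for 37 of the 44 genes and negative for 7, with a median log2 fold change of 0.62 against -0.01 over all genes tested.

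For 16 of the 45 genes the lowest inside library exceeded the highest outside library, and this held in 5.65% of all genes tested. For 1 gene, Rfc4, the order was the opposite, as in 5.02% of all genes tested. Without outside graft 1 the count was 20, with Orc1, Tk1, Chaf1b and Clspn added. With fewer outside libraries an absence of overlap is easier for any gene. The share over all genes was not counted in that setting, so 20 cannot be set against 5.65%. The count of 16 did not change when the libraries were scaled by DESeq2 size factors, upper-quartile factors or library size alone. Of these 16 genes, 7 share exon bases with a neighbour, and the neighbours of Cdc45, Gins2, Chaf1a and Ccne2 (Ufd1, Gse1, Ubxn6 and Ints8) had log2 fold changes of 0.07, 0.03, -0.02 and 0.0045. Of the 44 genes tested, 6 (Cdc6, Mcm10, Rrm2, E2f7, E2f8 and Ccne1) had fewer than 3 outside libraries above the cutoff and passed the filter only because inside libraries were above it, so their selection favoured a difference. For Cdc6 these were 2 inside libraries and 1 outside library, and for the others all 3 inside libraries. They hold 5 of the 16 genes, and the other 11 came from the 38 genes with at least 3 outside libraries above the cutoff. The 95% interval of a gene's log2 fold change was above 0 for 16 of the 44 genes, where this held in 5.76% of all genes tested. It was fully inside -1 to 1 for 12 of the 44, against 55.07% of all genes tested. It was above 1 for 5 and below 0 for 1, and the shares over all genes were not counted for these. A change beyond 2-fold thus remained possible for most of the 44 genes, but not for Mcm3, Slbp and Pcna, among others.

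**Figure D2:**
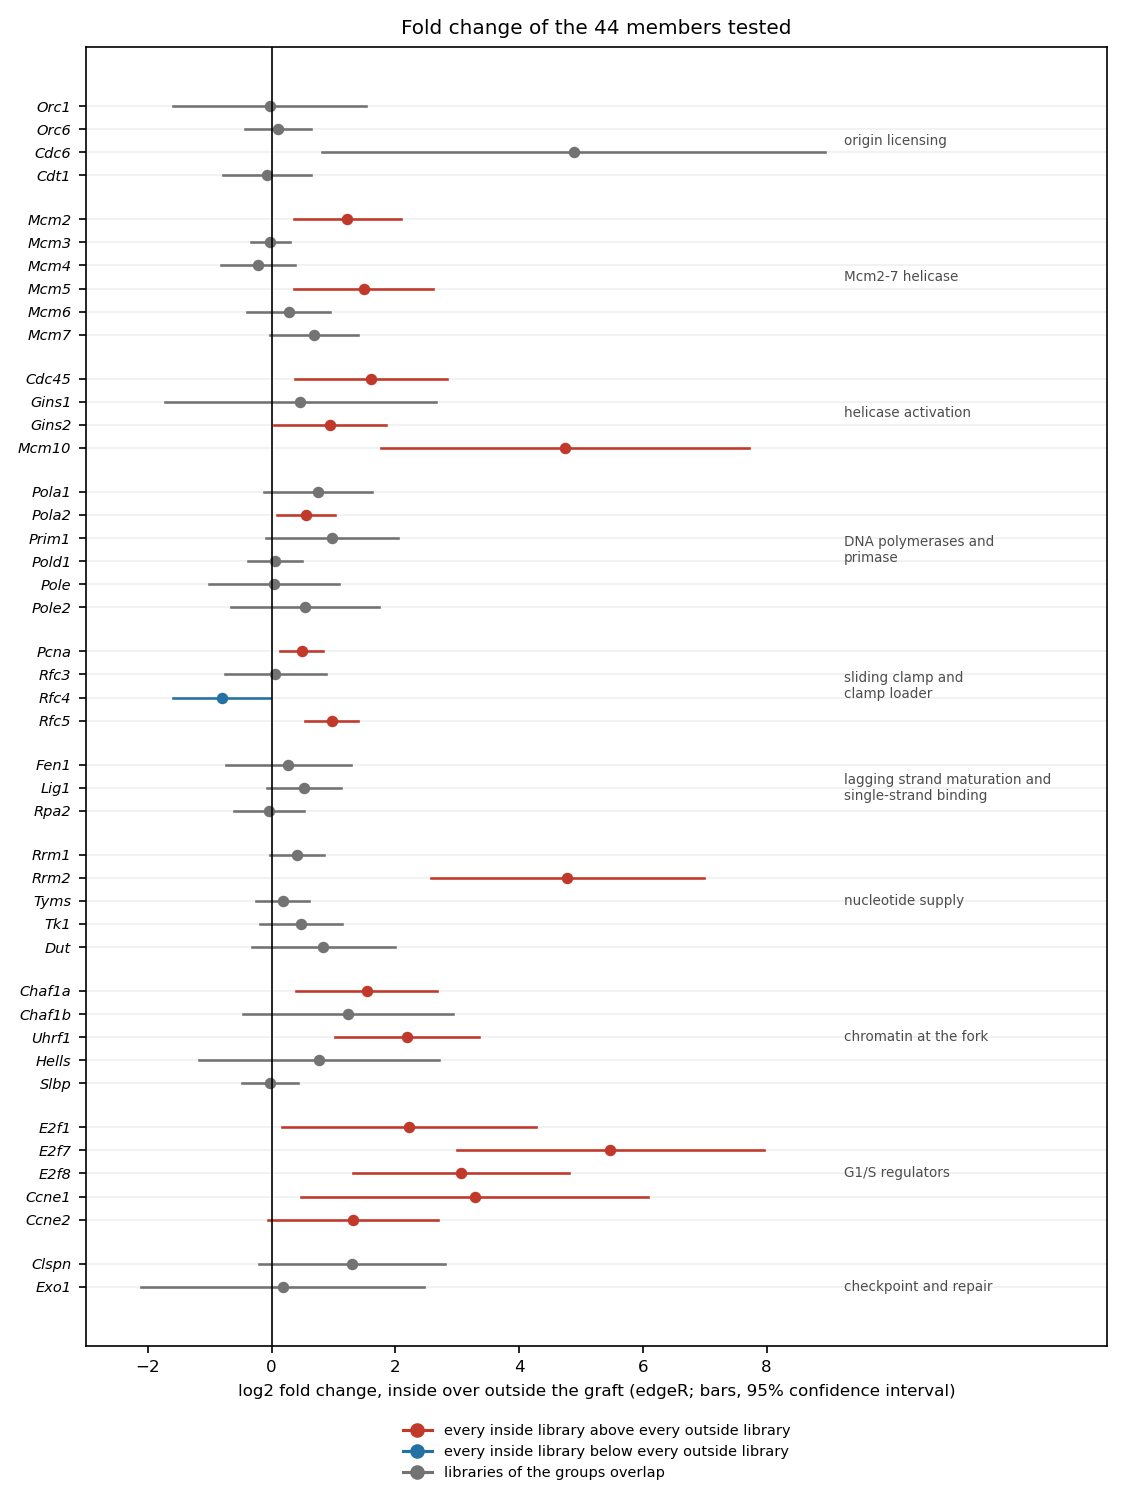
Log2 fold change of inside over outside the graft for the 44 genes tested (points), with its 95% confidence interval in edgeR (bars), grouped by role. Red marks the 16 genes for which every inside library was above every outside library, blue the 1 gene (Rfc4) with the opposite order, and grey the genes whose libraries overlap.

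Marker transcripts of other myeloid cells also stood at higher levels in the inside libraries and are given here beside the replication genes. All 10 microglial markers were detected in every library, and their sum was 47440 to 55110 CPM inside and 54370 to 60330 CPM outside. This sum does not give the share of microglia in a library. All 10 had a negative log2 fold change, with a median of -0.17. Cx3cr1, P2ry12 and Sall1 were lower in every inside library, an order seen in 5.02% of all genes tested. Neither edgeR nor voomWithQualityWeights called any of the 10, and DESeq2 called P2ry12 (adjusted p = 0.0433). The 10 neutrophil markers summed to 7537, 797 and 15520 CPM inside and to 0.640, 0.311, 367 and 18.1 CPM outside. Their main contributors were S100a8, S100a9, Ngp, Camp and Ltf, and the granule protease genes Elane and Mpo, which mark neutrophil precursors, were at 0 in all 4 outside libraries and in inside graft 2. Elane stood at 17.0 and 108 CPM and Mpo at 7.81 and 112 CPM in inside graft 1 and 3. Mmp8 and Retnlg, on the same list, did not follow this order. Mmp8 was at 0, 0.666 and 0 CPM inside and 0, 0, 6.72 and 0.081 CPM outside. Retnlg was at 1.37, 0 and 2.61 CPM inside and 0, 0, 3.10 and 0.81 CPM outside. The 10 monocyte markers summed to 822, 111 and 1684 CPM inside and 17.5 to 36.3 CPM outside, and the 9 markers of border-associated macrophages to 115, 18.0 and 126 CPM inside and 6.32 to 17.8 CPM outside. The 10 lymphocyte markers summed to 30.5 to 51.4 CPM inside and 33.9 to 37.9 CPM outside, with Cd79b the main part in every library (28.0 to 38.1 CPM) and Cd3d, Trbc2, Ms4a1 and Gzma at 0 throughout. Nkg7, a granule gene of cytotoxic lymphocytes on this list, was at 2.36 and 11.96 CPM in inside graft 1 and 3 and at 0 in the other 5 libraries. The 10 markers of neural progenitors, which a graft of embryonic cells could hold, summed to 8.99 to 16.7 CPM inside and 2.21 to 12.7 CPM outside. Nes made up nearly all of the inside sum (8.95 to 16.7 CPM) and was at 2.21 to 12.3 CPM outside. Sox11 and Dcx were at 0 in every inside library and reached 0.907 and 0.534 CPM outside. Sox2 reached 0.0444 CPM inside and 1.12 CPM outside, and Pax6 0.355 CPM inside and 0.160 CPM outside. Neurod1 and Neurog2 were at 0 throughout. Markers of neurons, astrocytes, the oligodendrocyte lineage and endothelium with pericytes had ratios of 0.742, 0.812, 0.97 and 0.691. The part of these other cells in the levels of the replication genes was not tested.

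The 3 inside libraries also differed from one another in the replication genes. Inside graft 3, with the highest neutrophil sum, had the highest level of its group for 28 of the 45 genes, inside graft 1 for 10 and inside graft 2 for 7. The lowest level of the group fell to inside graft 1 for 20 genes, to inside graft 2 for 18 and to inside graft 3 for 7. Inside graft 2, with the lowest neutrophil sum of the group, exceeded all 4 outside libraries in 24 of the 45 genes, where 22.5% of all genes tested did. Inside graft 1 exceeded them in 20 (22.1% of all genes tested), and inside graft 3 in 32 (23.5%). With inside graft 2 as the only inside library, a setting chosen after seeing the data, the ratio of the summed level was 1.20 and the median log2 fold change 0.50.

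**Figure D3:**
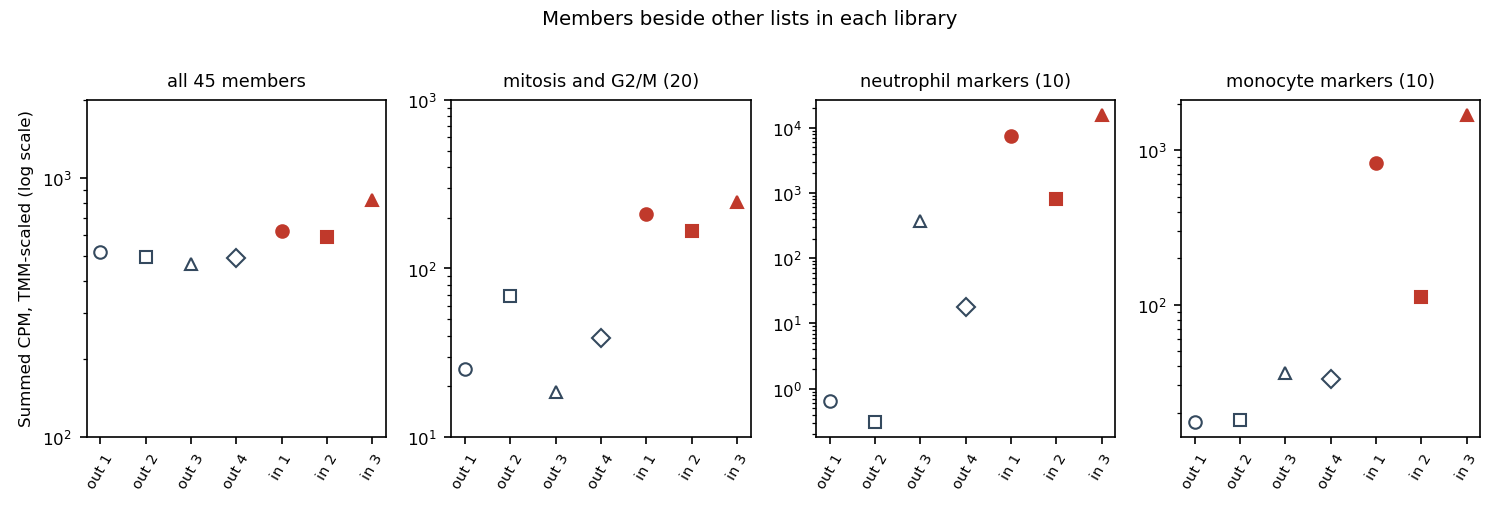
Summed TMM-scaled CPM on log axes in each library (out 1 to 4, outside graft; in 1 to 3, inside graft) for the 45 replication genes, 20 genes of mitosis and G2/M, 10 neutrophil markers and 10 monocyte markers. The replication genes span 466 to 818 CPM, whereas the neutrophil markers span 0.311 to 15520 CPM and are lowest inside the graft in inside graft 2.

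No group difference was resolved for the 4 licensing genes. Orc6, which encodes a subunit of the origin recognition complex, stood at 9.66, 13.6 and 14.9 CPM inside and 10.4, 13.4, 11.95 and 11.7 CPM outside. Its log2 fold change was 0.10 (SE 0.24, adjusted p = 0.949, edgeR). Cdt1, which loads the helicase together with CDC6, was at 9.58, 7.90 and 17.4 CPM inside and 15.4, 11.9, 8.73 and 12.9 CPM outside, a log2 fold change of -0.07 (SE 0.32, adjusted p = 0.977) that was 0.05 without outside graft 1. The libraries of both genes were interleaved. Orc1, the largest ORC subunit, was at 1.96, 2.22 and 3.24 CPM inside and 6.30, 1.601, 0.885 and 1.34 CPM outside. Here outside graft 1 decided the value: the log2 fold change was -0.03 (SE 0.70, adjusted p = 0.995) with it and 0.96 without it. Cdc6, the ATPase that loads the helicase, was at 0.864, 0 and 11.7 CPM inside, so that inside graft 3 held nearly all of it, and at 0, 0, 0 and 0.526 CPM outside. The log2 fold change of Cdc6 was 4.88 (adjusted p = 0.400, edgeR), with an interval of 0.82 to 8.95 that was the widest among the 44 genes.

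The 6 subunits of the MCM2-7 helicase, a ring of equal parts at the replication fork, did not move together. Mcm2 was at 30.8, 21.3 and 30.0 CPM inside and 4.32, 12.01, 11.99 and 18.5 CPM outside, with a log2 fold change of 1.22 (SE 0.39, adjusted p = 0.288, edgeR). Mcm5 was at 20.7, 19.97 and 38.5 CPM inside and 2.08, 9.30, 11.6 and 14.5 CPM outside, with a log2 fold change of 1.49 (SE 0.51, adjusted p = 0.330). In both genes every inside library was higher, and outside graft 1 was the lowest library by far. Mcm7 followed with 20.3, 21.9 and 41.5 CPM inside and 10.03, 17.8, 21.04 and 20.5 CPM outside (log2 fold change 0.68, SE 0.32, adjusted p = 0.546), where the overlap came from inside graft 1. Part of the Mcm7 signal is uncertain, since its exons overlap those of Ap4m1, Cops6 and 2 microRNA genes, Mir25 and Mir93. The neighbours Ap4m1 and Cops6 had log2 fold changes of 0.19 and 0.28. Mcm6 was at 44.1, 23.4 and 51.8 CPM inside and 48.6, 31.3, 26.3 and 25.03 CPM outside, so that inside graft 2 was the lowest of all and outside graft 1 the second highest, and its log2 fold change was 0.28 (SE 0.30, adjusted p = 0.856).

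The remaining pair of helicase subunits showed no sign of a higher level inside the graft. Mcm4 was at 22.9, 10.9 and 20.6 CPM inside and 16.5, 20.8, 23.3 and 23.7 CPM outside, a log2 fold change of -0.22 (SE 0.27, adjusted p = 0.880, edgeR). Mcm3, at 61.3, 54.8 and 50.2 CPM inside and 61.3, 48.3, 56.1 and 58.7 CPM outside, had the smallest fold change of all 44 genes, -0.02 (SE 0.14, adjusted p = 0.987) and 0.03 without outside graft 1, and its 95% interval of -0.33 to 0.30 left no room for a 2-fold change. Per kilobase of exon, Mcm3 reached 14.8 CPM inside and 14.95 CPM outside and was the most abundant subunit in both groups. Mcm2 was the least abundant outside (1.68 CPM per kilobase) and Mcm2 and Mcm4 were the least abundant inside (3.94 and 5.05 CPM per kilobase), so the range between the subunits was narrower inside the graft. Their sum was 195 ± 40.4 CPM (SD, n = 3) inside and 148 ± 9.51 CPM (SD, n = 4) outside, and the libraries of the groups overlapped.

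Genes for helicase activation were low in all libraries but more clearly separated. Their sum was 15.8, 17.4 and 27.3 CPM inside and 4.80, 8.18, 9.54 and 9.88 CPM outside, a ratio of 2.49. Gins2, a GINS subunit, was at 5.42, 4.66 and 6.24 CPM inside and 1.601, 3.74, 2.86 and 3.12 CPM outside, with a log2 fold change of 0.94 (SE 0.41, adjusted p = 0.499, edgeR). Cdc45, the helicase cofactor, was at 6.79, 3.46 and 7.84 CPM inside and 3.20, 0.667, 2.29 and 1.74 CPM outside, with a log2 fold change of 1.61 (SE 0.55, adjusted p = 0.331). Mcm10, which acts at origin firing, was counted in every inside library (39, 89 and 179 reads, or 1.53, 3.95 and 7.54 CPM), but outside the graft only in outside graft 4 (15 reads, 0.607 CPM). Its log2 fold change was 4.74 (SE 1.34, adjusted p = 0.217, edgeR). Mcm10 passed the filter only because of the inside libraries, so its selection favoured this order. Gins1, another GINS subunit, overlapped between groups (2.04, 5.28 and 5.73 CPM inside, 0, 3.78, 4.39 and 4.41 CPM outside), and its log2 fold change was 0.46 (SE 0.98).

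Among the polymerase genes the differences were smaller. Pola2, the accessory subunit of polymerase α, was at 30.3, 40.1 and 34.6 CPM inside and 29.1, 27.6, 20.8 and 17.9 CPM outside, with a log2 fold change of 0.55 (SE 0.21, adjusted p = 0.408, edgeR). It was the only one of the 6 without overlap between groups. Pola1, the catalytic subunit (0.75, SE 0.39), Prim1, the primase subunit (0.98, SE 0.48), and Pole2, of polymerase ε (0.54, SE 0.54), had positive log2 fold changes with overlapping libraries. For Pold1, the catalytic subunit of polymerase δ, the log2 fold change was 0.06 (SE 0.20), with 23.6 to 31.7 CPM inside and 22.4 to 32.9 CPM outside. For Pole, the catalytic subunit of polymerase ε, it was 0.04 (SE 0.47), with 2.39 to 3.24 CPM inside and 1.42 to 3.65 CPM outside.

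The clamp and its loader held both the positive fold change with the smallest error and the one gene that was lower in every inside library. Pcna, which encodes the sliding clamp, was at 38.0, 41.6 and 41.1 CPM inside and 26.4, 33.5, 28.6 and 26.2 CPM outside, a log2 fold change of 0.49 (SE 0.15, adjusted p = 0.288, edgeR). The groups did not overlap, but the interval of 0.14 to 0.83 placed the difference below 2-fold. Rfc5, a small subunit of the clamp loader, was at 19.0, 21.6 and 22.6 CPM inside and 11.3, 10.4, 11.3 and 9.92 CPM outside. The spread within each group was small, and the log2 fold change of 0.98 (SE 0.19) gave an adjusted p of 0.0919 in edgeR and 0.0521 in voomWithQualityWeights. Its exons overlap those of Wsb2 on the opposite strand, whose log2 fold change was 0.13. Rfc4, another small subunit of the same loader, was at 3.85, 5.28 and 2.91 CPM inside and 6.72, 6.58, 5.96 and 8.79 CPM outside, so that every inside library was lower. Its log2 fold change was -0.81 (SE 0.35, adjusted p = 0.504, edgeR), and its exons overlap those of Eif4a2 (log2 fold change 0.05). Rfc3 was at 13.7, 26.5 and 20.9 CPM inside and 34.5, 13.5, 16.7 and 13.4 CPM outside, with a log2 fold change of 0.06 (SE 0.37) that was 0.49 without outside graft 1. Genes of 1 complex thus had fold changes of opposite sign.

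The genes of lagging strand maturation and single-strand binding did not separate the groups. Rpa2, a subunit of the single-strand binding protein RPA and the most abundant of the 3, was at 13.4, 17.8 and 21.4 CPM inside and 13.8, 22.8, 14.9 and 20.3 CPM outside. Its log2 fold change was -0.03 (SE 0.25, adjusted p = 0.987, edgeR). Lig1, the ligase that joins Okazaki fragments, was at 11.4 to 17.7 CPM inside and 8.27 to 12.6 CPM outside (0.52, SE 0.27). Fen1, the flap endonuclease, was at 2.55 to 3.08 CPM inside and 1.49 to 2.92 CPM outside (0.27, SE 0.45).

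Among the 5 genes of nucleotide supply, Rrm2 alone had no overlap between the groups. Rrm2, the small subunit of ribonucleotide reductase that is made in S phase, was at 15.9, 7.41 and 31.3 CPM inside and 0.107, 1.78, 0 and 0.729 CPM outside. Every inside library was several times above the highest outside library. The log2 fold change was 4.78 (SE 0.99, adjusted p = 0.0945, edgeR), with a 95% interval of 2.57 to 6.99. Rrm2 passed the filter only because of the inside libraries, so its selection favoured this order. Its partner Rrm1, the large subunit and the most abundant gene of the 5, was at 37.9, 42.2 and 48.7 CPM inside and 37.9, 24.4, 28.7 and 38.2 CPM outside, with a log2 fold change of 0.41 (SE 0.20, adjusted p = 0.559). Per kilobase of exon, Rrm2 stood at 6.57 CPM inside and 0.236 CPM outside, and Rrm1 at 3.90 CPM inside and 2.93 CPM outside, so the order of the group means differed. Library by library, Rrm2 was above Rrm1 on this scale in inside graft 1 and 3, and below it in inside graft 2 (2.67 and 3.83 CPM per kilobase) and in all 4 outside libraries. Tyms, thymidylate synthase (0.18, SE 0.19), Tk1, thymidine kinase (0.48, SE 0.30), and Dut, which removes dUTP (0.84, SE 0.52), overlapped between groups, and Tk1 did so through outside graft 1 alone. For Dut the difference rested on inside graft 3, at 16.7 CPM against 5.89 and 3.77 CPM in the other two, and its log2 fold change was -0.02 without that library.

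At the fork, the chromatin genes divided into Uhrf1 and Chaf1a on one side and Slbp on the other. Uhrf1, which recruits the maintenance methyltransferase to newly copied DNA, was at 5.57, 10.5 and 17.4 CPM inside and 1.55, 3.83, 3.26 and 1.13 CPM outside, with a log2 fold change of 2.19 (SE 0.52, adjusted p = 0.131, edgeR). Chaf1a, the large subunit of the CAF-1 histone chaperone, was at 9.70, 5.46 and 7.50 CPM inside and 4.22, 3.60, 1.45 and 1.17 CPM outside (1.54, SE 0.51). Chaf1b, its partner, reached 11.04 CPM in inside graft 3 and was at 3.69 and 2.97 CPM in the other inside libraries, against 5.28, 2.94, 1.45 and 0.405 CPM outside (1.23, SE 0.76). The overlap came from outside graft 1 alone, and without it the log2 fold change was 1.89. Hells, a chromatin remodeller, overlapped between groups (0.77, SE 0.87), with 3 reads in outside graft 1 and 173 in outside graft 2. Slbp, which binds the stem-loop of histone mRNAs, was the most abundant of the 5 at 56.3, 42.8 and 82.2 CPM inside and 66.2, 66.8, 55.1 and 57.6 CPM outside. Its log2 fold change was -0.02 (SE 0.21, adjusted p = 0.988) and 0.02 without outside graft 1, and its interval of -0.48 to 0.44 excluded a 2-fold change.

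All 5 regulators of the G1/S switch were higher in every inside library than in any outside library, but E2f7, E2f8 and Ccne1 passed the filter only because of the inside libraries, so their selection favoured this order. Their sum was 20.4, 21.7 and 30.0 CPM inside and 3.36, 4.49, 4.31 and 7.37 CPM outside, a ratio of 4.92. E2f7 (chromosome 10, bases 110745439 to 110787384 of GRCm38, plus strand) was counted with 44, 31 and 92 reads inside and with 3, 1, 0 and 0 reads outside. These were 1.73, 1.38 and 3.88 CPM against 0.160, 0.0445, 0 and 0 CPM, and the log2 fold change was 5.48 (SE 1.11, adjusted p = 0.0926, edgeR). With so few reads outside, the size of that fold change depends on the model, and its 95% interval ran from 2.997 to 7.96. Without outside graft 1 it was 6.92. The gene shares exon bases with 1700020G17Rik on the opposite strand, which had no reads in any library. E2f8, the other repressor of the pair, was at 5.22, 3.11 and 9.23 CPM inside and 0.320, 0.0890, 1.05 and 1.30 CPM outside, with a log2 fold change of 3.07 (SE 0.78, adjusted p = 0.162). Its neighbour Gm2788, which overlaps its exons, was at 0.857 CPM inside and 0.204 CPM outside on average.

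E2f1, the activator, was at 7.14, 9.05 and 8.22 CPM inside and 0, 3.96, 0.966 and 2.03 CPM outside. Its log2 fold change was 2.22 (SE 0.92, adjusted p = 0.471, edgeR), and of the 3 E2F genes it had the most even level across the inside libraries. Ccne1, which encodes cyclin E1, was at 2.75, 2.71 and 1.47 CPM inside and 0.107, 0, 0 and 0.810 CPM outside (3.28, SE 1.26, adjusted p = 0.419). It was the only one of the 5 with its lowest inside level in inside graft 3. Ccne2, for cyclin E2, was at 3.57, 5.46 and 7.20 CPM inside and 2.78, 0.400, 2.29 and 3.24 CPM outside (1.31, SE 0.62, adjusted p = 0.552).

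The checkpoint and repair genes were near the limit of detection. Clspn, which encodes the checkpoint mediator claspin, was at 3.53, 1.95 and 2.19 CPM inside and 2.24, 0.445, 0.966 and 0.527 CPM outside, with a log2 fold change of 1.30 (SE 0.68, adjusted p = 0.597, edgeR). Only outside graft 1 reached into the range of the inside libraries, and without it the log2 fold change was 1.98. Exo1, an exonuclease of mismatch repair, was at 0.843 to 1.78 CPM inside and 0 to 1.66 CPM outside (0.18, SE 1.03), an interval of -2.12 to 2.47 that resolved nothing at this depth, and without outside graft 1 its log2 fold change was -0.23. Ung was at 0 to 0.236 CPM inside and 0 to 0.483 CPM outside and was not tested.

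**Figure D4:**
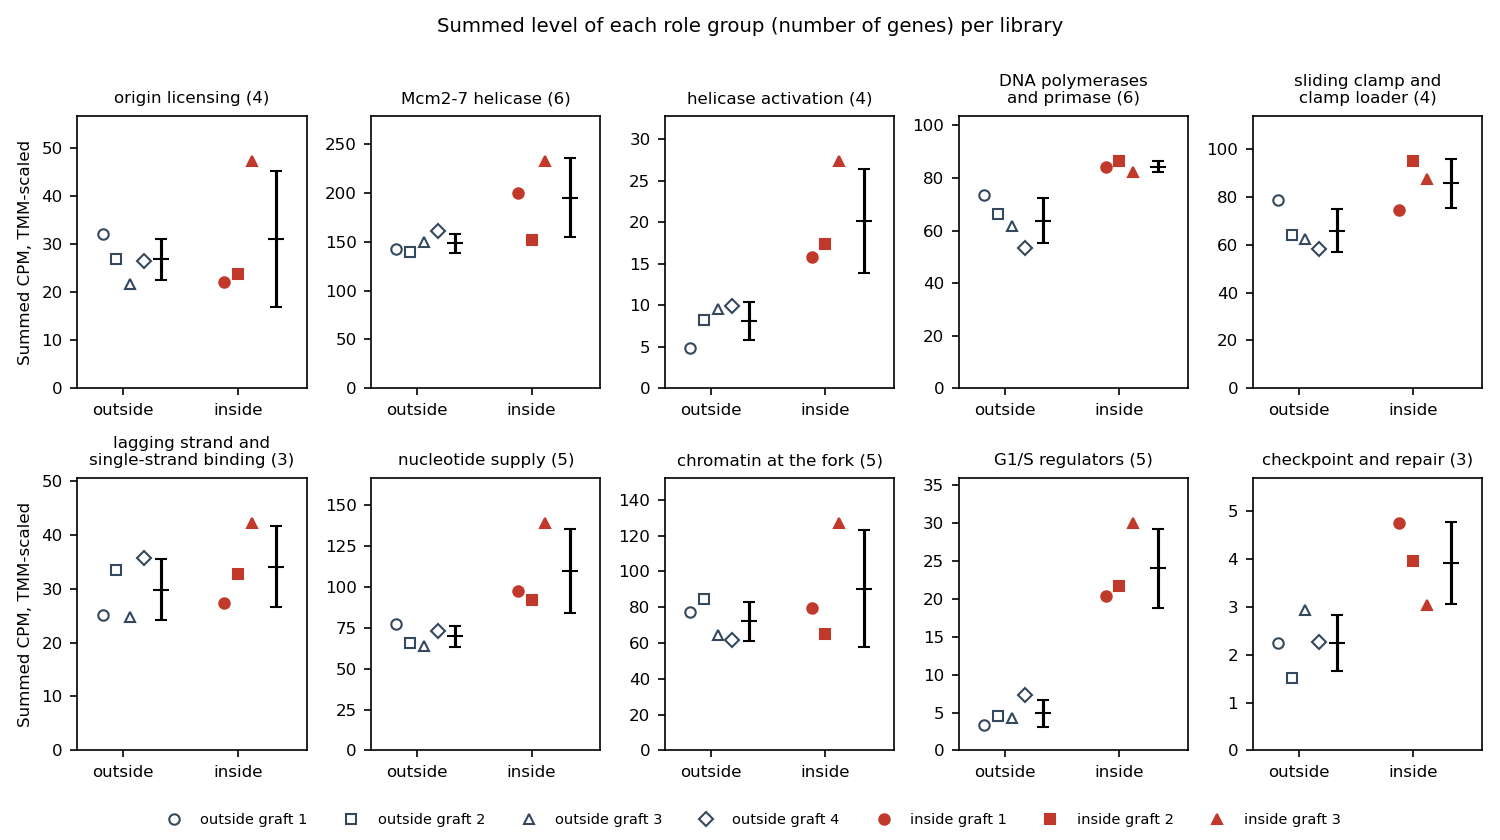
Summed TMM-scaled CPM of each role group in every library, with the number of genes in parentheses. Horizontal ticks are group means and error bars SD (4 outside and 3 inside libraries). The G1/S regulators and helicase activation genes separate by the largest ratios, 4.92 and 2.49, while origin licensing and lagging strand genes overlap.

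Other genes of the cell cycle gave a background for these values. Of 52 further replication genes, 37 had a positive and 15 a negative log2 fold change, with a median of 0.21. In 8 of them every inside library was above every outside library, such as Cdc7, Dna2, Gmnn and Asf1b, and in 0 below, and 0 were called by edgeR or voomWithQualityWeights, 3 by DESeq2 and 6 at an unadjusted p below 0.05 in edgeR. The most abundant, Top1, which encodes topoisomerase I, was at 82.8, 86.9 and 80.5 CPM inside and 72.8, 74.0, 83.9 and 80.4 CPM outside (0.10, SE 0.11). Of the 14 genes of the E2F, DP, RB and DREAM family that are not among the 45, only Tfdp1, the dimerization partner of E2Fs, was higher in every inside library (58.8, 27.7 and 54.5 CPM against 20.8 to 26.4 CPM, log2 fold change 1.00, SE 0.25). E2f3 (-0.42, SE 0.17) and E2f5 (-0.50, SE 0.24) were lower in every inside library, and E2f4, a mainly repressive E2F, was at 58.8, 60.4 and 62.6 CPM inside and 47.0 to 69.3 CPM outside. Neither test called any of the 14, whereas DESeq2 called 1 and edgeR's unadjusted p was below 0.05 for 2.

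Genes of mitosis and G2/M differed more than the replication genes. Their sum of 20 genes was 210, 167 and 248 CPM inside and 25.3, 68.5, 18.6 and 38.8 CPM outside, a ratio of 5.51. All 20 had a positive log2 fold change, with a median of 2.32. In 17 of the 20 every inside library was above every outside library. Of the 20, Mki67, Top2a, Ccnb2, Bub1, Cenpe, Kif11, Ube2c, Cdc20 and Tpx2 had fewer than 3 outside libraries above the filter cutoff. They passed it only because of the inside libraries, so their selection favoured a difference. None of the 20 passed edgeR's adjusted p of 0.05, and 17 had an unadjusted p below 0.05. DESeq2 called 9 and voomWithQualityWeights called 6: Top2a, Birc5, Ube2c, Cdc20, Tpx2 and Prc1. Top2a encodes topoisomerase IIα and was at 30.5, 25.8 and 27.3 CPM inside and 0.107, 9.52, 0.0402 and 0.203 CPM outside. The log2 fold change was 3.50 in edgeR (SE 1.23, adjusted p = 0.356) and 6.71 in voomWithQualityWeights (SE 0.999, adjusted p = 0.0317). Tpx2, a spindle assembly factor, was at 9.46, 5.59 and 14.4 CPM inside and 0.0534 to 1.05 CPM outside (4.43, SE 0.74). In the outside libraries these genes were highest in outside graft 2, which was not so for the replication genes as a sum. The promoter windows of the 2 lists also differed in the elements they hold: 13 of 17 mitotic genes had a CHR element (76.5%) and 1 had an E2F site (5.88%), against 15.4% and 41% of the replication genes.

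**Figure D5:**
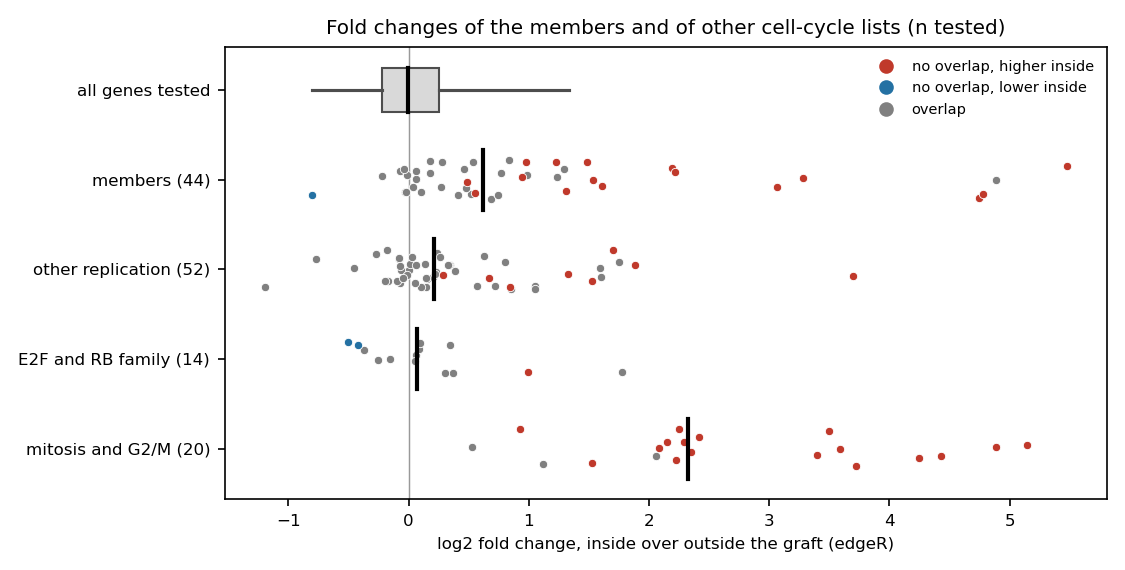
Log2 fold change of inside over outside the graft (edgeR) for the 44 replication genes tested and for 3 other cell-cycle lists. Points are genes, vertical bars medians, and the box shows the 25th to 75th percentile of all 15257 genes tested with whiskers at the 5th and 95th. The medians are 0.62, 0.21, 0.07 and 2.32 from top to bottom, and -0.01 for all genes.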

How the data were processed

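Single-end reads of 7 SMARTer and Nextera XT libraries from sorted microglia were processed by the authors. Per the labels and the methods of the study they used STAR 2.7.2a on GRCm38.p6 and featureCounts 1.6.2 with the GENCODE M21 annotation. The deposited values are raw counts per gene name, 1 column per library, without normalization. Strand was ignored and reads with more than 1 mapping position were dropped, so genes with near-identical copies are undercounted. Total counts were 18644807 to 25882122 per library. PCR duplicates could not be recognised, so a read is not always a separate molecule.

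From the counts, TMM-scaled CPM was computed with edgeR 4.0.16 in R 4.3.3. Genes were filtered with filterByExpr by group (minimum count 10, here 0.421 CPM), leaving 15257 genes. The groups were compared with glmQLFit and glmQLFTest (robust=FALSE) and with voomWithQualityWeights (limma 3.58.1), each fitted on all 15257 genes with Benjamini-Hochberg adjustment and a threshold of 0.05. DESeq2 1.42.0 was an alternative. Standard errors are those implied by the F statistic. The scripts were tested on simulated data.

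The 45 genes, the lists set beside them and the tests were chosen with earlier results of these data known. Full values were given for genes called by either test, Mcm2 to Mcm7, Pcna, the gene of each role with the highest mean over all libraries, the 3 smallest fold changes and genes lower inside the graft. Further genes, such as Rrm2, Uhrf1, Rfc5 and Cdc6, were named after their values were seen. From other lists the most abundant and the called genes were named. No 2 libraries of a group agreed within sampling noise (chi-square over its degrees of freedom, 16.6 or more). Labels give replicate numbers to both groups but no pairing, so no block was used in the main fits. Deviations from the group means of same-numbered libraries correlated at -0.061, 0.102 and 0.088 over genes. Values this small do not decide whether same-numbered libraries were paired. Alternatives were other scaling factors, filters and thresholds, no quality weights, a replicate block and each library left out, and, added after seeing the data, inside graft 1 and 3 left out together.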

Additional observations from a re-analysis of the deposited data

Results flagged for a closer look

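In the 4 outside graft libraries, 1 library lay far from the other 3 by Dixon's criterion in 7 of 56 values tested (45 genes, the sum of all of them and 10 role sums). Chance alone would flag about 2.8 if the values were independent and normally distributed. They were not, since the sums contain the genes and several genes were near 0. For Cdc6 and Mcm10 the other 3 libraries were at 0, which alone puts Dixon's ratio at its maximum. The count of 7 therefore cannot be set against 2.8. Outside graft 1, which had the smallest total and lowest weight, was high for Orc1 (6.30 CPM against 0.885 to 1.601 in the others) and Rfc3 (34.5 CPM against 13.4 to 16.7), and low for Gins1 (0 CPM against 3.78 to 4.41). Outside graft 4 was high for Cdc6 (0.526 CPM, with the others at 0), Mcm10 (0.607 CPM, with the others at 0) and Ccne1 (0.81 CPM against 0 to 0.107). Outside graft 3 was high for Ung (0.483 CPM against 0 to 0.081). Groups of 3 libraries were not examined in this way. No cause was tested for any of these values.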

How the results depend on the processing

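The number of genes called changed with the processing, while the count of genes without overlap changed less. The edgeR count of 0 higher genes became 5 without a filter on low counts (E2f7, E2f8, Mcm10, Rrm2 and Uhrf1) and 5 with DESeq2's Wald test, and was 0 under the other settings. Without that filter edgeR called 366 of all 29525 genes in either direction, against 15 of 15257 in the main fit. The voomWithQualityWeights count of 1 became 0 at an adjusted p of 0.01, 0 without quality weights and 0 to 3 with each library left out, the 3 (Chaf1a, E2f7 and Rrm2) without inside graft 2. Without that library the same test called 207 of all 16041 genes in either direction, against 75 of 15257 in the main fit. With a mean of at least 1 CPM as the filter, Rfc5 was called (adjusted p = 0.047) in place of E2f7 (0.0788). With the replicate block, which leaves out outside graft 4, it called 4 genes (Ccne1, Mcm10, Mcm5 and Uhrf1) and edgeR 0, with a median log2 fold change of 0.66. In the labels, same-numbered libraries share only a number. Inside graft 2 and 3 correlated best with the outside library of their own number (0.102 and 0.088), and inside graft 1 with outside graft 3 (0.074). Without inside graft 1 and 3, chosen after seeing the data, 1 inside library was left and only the outside libraries supplied the spread. In that setting 24 genes were higher than every outside library, where 22.5% of all genes tested in the main fit were. Another 5 were lower than every outside library, and the share over all genes was not counted for this order. With each library left out, the genes without overlap numbered 16 to 21 higher and 1 lower. Leaving a library out makes an absence of overlap easier for any gene, and no share over all genes was counted in these settings. The ratio of the sums ran from 1.24 to 1.47 and the median log2 fold change from 0.39 to 0.81, lowest without inside graft 3.

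Of the 44 genes, 30 kept their sign in edgeR and DESeq2 under every setting and 14 did not. With the replicate block the log2 fold change became 0.23 for Orc1, 0.0083 for Mcm3, -0.0015 for Pold1, -0.18 for Pole and 0.043 for Rpa2. Without inside graft 1 and 3 it became -0.48 for Mcm6, -0.0022 for Pold1, -0.37 for Dut and -3e-04 for Hells. With each library left out it ran from -0.31 to 0.96 for Orc1, -0.48 to 0.14 for Cdt1, -0.067 to 0.19 for Pold1, -0.20 to 0.13 for Rpa2, -0.31 to 0.17 for Slbp, -0.42 to 0.044 for Mcm4, -0.17 to 0.49 for Rfc3, -0.23 to 0.48 for Exo1, -0.030 to 0.27 for Orc6, -0.092 to 0.049 for Mcm3, -0.18 to 0.20 for Pole and -0.023 to 1.20 for Dut. None of these values was called. The cause of these changes was not tested, apart from the number of libraries and genes that each setting leaves. With 3 against 4 libraries and levels of a few CPM, differences under 2-fold could not be resolved for most of these genes.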
